A study of Mus musculus with 4 samples.

Results

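The cyclins, cyclin-dependent kinases (CDKs), CDK inhibitors and E2F factors, with the pocket proteins, Cdc25 phosphatases and Myc genes that act with them, were read in sorted basal cells of the tail epidermis between hair follicles in mice. The 45 genes were taken from a list of cell-cycle regulators, and every probe set annotated to 1 of them was used. Of the 45 genes, 44 were measured, at 97 probe sets, out of 18193 genes and 45037 probe sets other than controls. Ccnb1 had no listed probe set and has no value here. The brightest probe set over all arrays stood for each gene, and 30 members had more than 1.

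The Sox9cKO group held 2 arrays of K14CreER:SmoM2:Sox9cKO cells, in which Sox9 was conditionally deleted, and the SmoM2 group held 2 arrays of K14CreER:SmoM2 cells with Sox9 present. Both groups expressed SmoM2, a constitutively active form of the Hedgehog transducer Smoothened, and both carried K14CreER, a tamoxifen-dependent Cre recombinase driven by the promoter of a basal keratinocyte keratin. Mice of both groups received 2.5 mg of tamoxifen on 10 consecutive days and were killed 9 weeks after the first dose. The sort took cells labelled Alpha6+ (an integrin of basal cells) that lacked CD34, a surface marker of bulge hair follicle stem cells, and 100 ng of RNA per sample was labelled for Affymetrix 3' expression arrays. The labels give neither the age of the mice nor how many animals made up a replicate, so the p-values rest on differences among these samples, which may be technical.

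Entry into the cell cycle starts when a D cyclin joins Cdk4 or Cdk6 and phosphorylates Rb1 and its relatives, which releases E2F factors to switch on S-phase genes. E and A cyclins with Cdk2 then drive DNA replication, and A and B cyclins with Cdk1 drive mitosis, while INK4 proteins hold back Cdk4 and Cdk6 and Cip/Kip proteins hold back the later kinases. Hedgehog signalling is known to raise D cyclins and Mycn in several tissues.

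The 4 arrays had nearly equal medians, between 5.45 and 5.48 on the log2 scale. Sox9 had 3 probe sets. The brightest over all arrays read 8.06 and 8.48 in Sox9cKO arrays, against 8.77 and 9.27 in SmoM2 arrays, a log2 change of -0.75 that did not pass among probe sets (adjusted p = 0.148 by limma). Another read 6.75 and 5.70 in Sox9cKO arrays, against 10.21 and 10.02 in SmoM2 arrays (change -3.89, adjusted p = 0.00171), and the dimmest changed by -0.41 (adjusted p = 0.309). All 3 were lower in Sox9cKO with arrays not overlapping, a pattern that 21.8% of all genes had at their brightest probe set. Their sizes disagreed, and where each lies against the deleted exons is not known here. The spiked labelling controls averaged 9.05 and 7.54 in Sox9cKO replicates 1 and 2, against 8.85 and 8.13 in SmoM2 replicates 1 and 2, so they were lower in replicate 2 of each genotype. In the same order, the 18S ribosomal control read 10.31 and 9.38, against 10.29 and 9.71. The Actb control signal at the 3' end less that at the 5' end was 0.75 and 0.52, against 0.74 and 0.46. Both were thus also lower in replicate 2 of each genotype. Basal keratins were bright on every array, with Krt14 at 13.15 and 13.30 in Sox9cKO against 13.51 and 13.76 in SmoM2 arrays, and Cd34 lay between 3.75 and 4.15 on all arrays, below each array's lower quartile.

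Loss of Sox9 went with higher expression of 5 of the 44 measured regulators and lower expression of 2. Ccnd2, Mycl, E2f7, Cdkn2d and Ccng2 rose, and Cdk6 and Myc fell, at an adjusted p under 0.05 (limma, adjusted over all 18193 genes, of which 6.19% were called in either direction). The 5 that rose were 11.4% of the measured members, where 2.66% of all genes were called higher, and the 2 that fell were 4.55%, where 3.53% of all genes were called lower. Members were bright as a rule, with 40 of 44 above the median gene, and among genes brighter than that median 3.5% were called higher and 4.41% lower. The log2 change was positive for 31 members, and the median over the 44 was 0.20, against 0.02 over all genes. Arrays of the genotypes did not overlap for 25 members that were higher in Sox9cKO (56.8%, against 26% of all genes) and 8 that were lower (18.2%, against 21.8%). Ccnd2 and Mycl were also at least 2-fold higher with arrays not overlapping, as were 1.75% of all genes, and Cdk6 was at least 2-fold lower, as were 2.41%. In bulk RNA of this kind, a change in the share of cells that are cycling and a change in the RNA of each cell cannot be told apart.

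**Figure D1:**
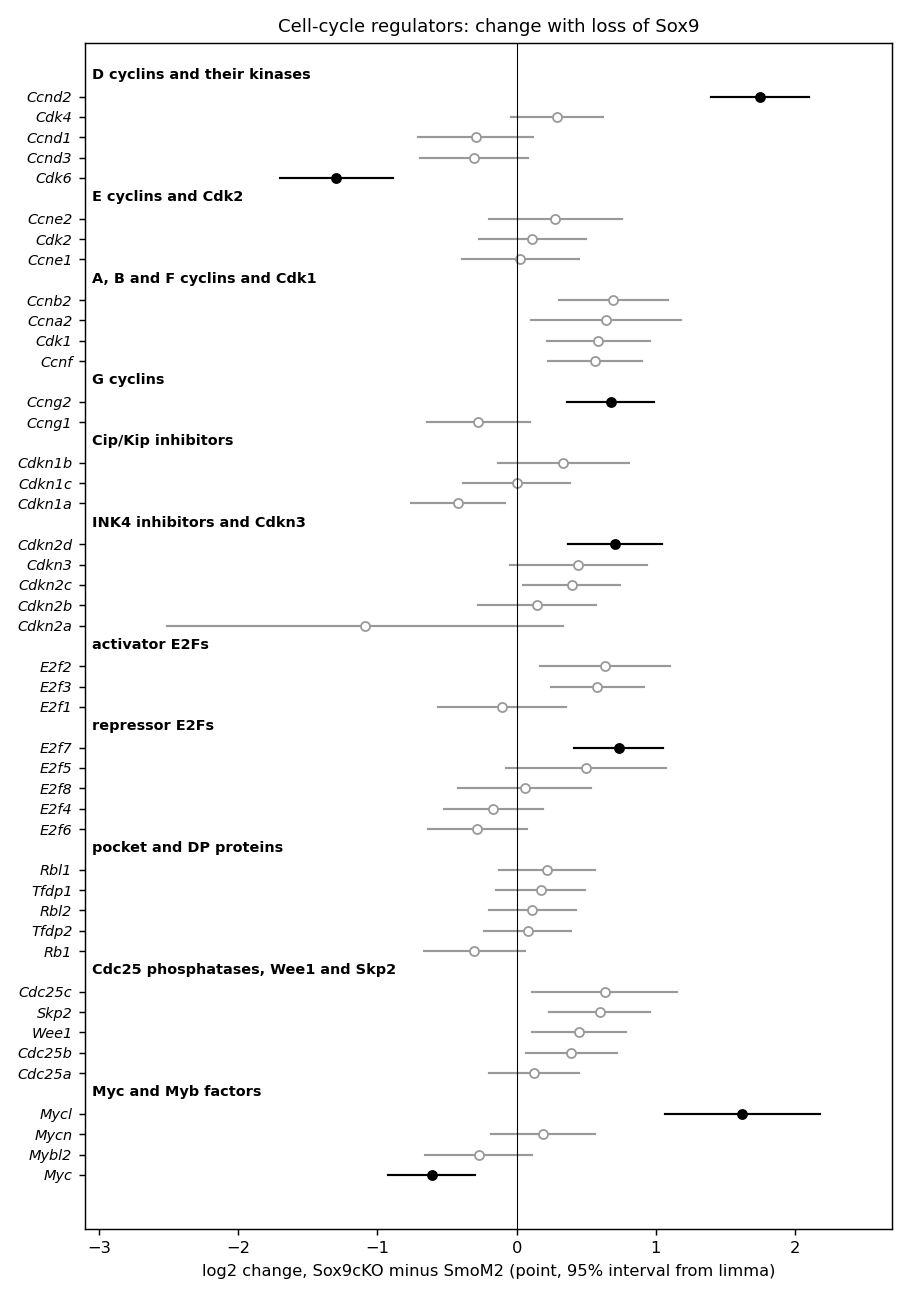
Log2 change (Sox9cKO minus SmoM2, horizontal axis) of the 44 measured members, grouped by role, with points for the estimate and bars for the 95% interval from limma (2 arrays per genotype). Filled points passed the test, with Ccnd2 at 1.75 and Cdk6 at -1.30 at the ends among them, and the wide bar is that of Cdkn2a.

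The D cyclins and their kinases held the largest changes in both directions among the members that passed the test. Ccnd2, a D cyclin that activates Cdk4 and Cdk6, read 11.55 and 11.71 in Sox9cKO arrays, against 9.77 and 9.99 in SmoM2 arrays. Both Sox9cKO arrays lay more than 1.5 log2 units above both SmoM2 arrays. Ccnd2 averaged 11.63 ± 0.12 in Sox9cKO and 9.88 ± 0.16 in SmoM2 (SD, n = 2 each), a log2 change of 1.75 (SE 0.15, 95% interval 1.40 to 2.10) or 3.36-fold, with adjusted p = 0.00100 by limma. In the test over all probe sets, all 7 of its own were called higher, with log2 changes between 1.70 and 2.03. They share their target transcript and are not replicates of each other. Over all probe sets, 1.48% were called higher and 2.34% lower.

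The other D cyclins did not pass. Ccnd1 read 11.34 and 11.12 in Sox9cKO arrays and 11.33 and 11.72 in SmoM2 arrays, so the genotypes overlapped, and its change was -0.30 (95% interval -0.71 to 0.12, adjusted p = 0.465). Its 3 probe sets had changes between -0.39 and -0.30. Ccnd3 read 7.79 and 8.18 in Sox9cKO against 8.29 and 8.30 in SmoM2 arrays, a change of -0.31 (adjusted p = 0.407). Thus Ccnd2 was the D cyclin with a called change, though a difference in response between the D cyclins was not tested.

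Cdk6, a kinase partner of D cyclins, went the other way. It read 9.47 and 9.07 in Sox9cKO arrays, against 10.48 and 10.65 in SmoM2 arrays, with both Sox9cKO arrays about 1 log2 unit or more below both SmoM2 arrays. Its mean was 9.27 ± 0.28 in Sox9cKO and 10.57 ± 0.12 in SmoM2 (SD, n = 2 each). The log2 change was -1.30 (SE 0.17, 2.46-fold lower, adjusted p = 0.00576), and all 3 of its probe sets were called lower, with changes between -1.39 and -1.003. Without SmoM2 replicate 2 the change of Cdk6 was -1.21 and missed the threshold (adjusted p = 0.0575). The closely related kinase Cdk4 read 10.66 and 10.59 in Sox9cKO against 10.43 and 10.24 in SmoM2 arrays. Its arrays did not overlap, but its change of 0.29 (95% interval -0.04 to 0.62) did not pass (adjusted p = 0.356), and its 3 probe sets lay between 0.26 and 0.34.

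**Figure D2:**
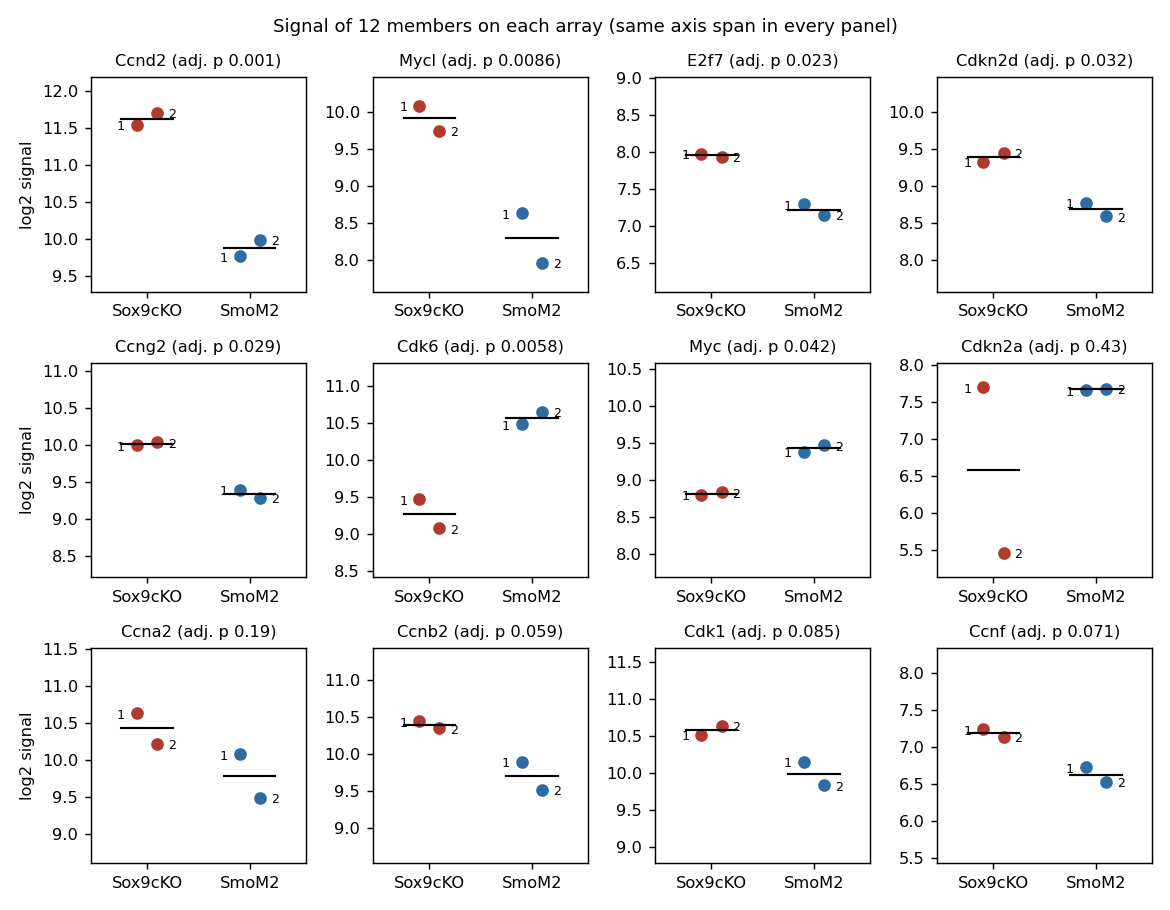
Log2 signal of 12 members on each array, Sox9cKO in red on the left and SmoM2 in blue on the right, with the replicate number beside each point and a line at the mean of 2 arrays; every panel spans the same number of log2 units, from a different start. Ccnd2 and Mycl stand highest above their SmoM2 values, Cdk6 and Myc lie below them, and Cdkn2a is low in Sox9cKO replicate 2 alone.

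Of the INK4 inhibitors, Cdkn2d rose and Cdkn2a differed between the Sox9cKO arrays. Cdkn2d, an inhibitor of Cdk4 and Cdk6, read 9.33 and 9.45 in Sox9cKO arrays, against 8.78 and 8.59 in SmoM2 arrays. The log2 change was 0.71 (SE 0.14, 1.63-fold, adjusted p = 0.0320 among genes), and in the test over all probe sets it had adjusted p = 0.0511. Cdkn2a, the locus of an INK4 inhibitor and of the p53 stabiliser Arf, read 7.70 and 5.46 in Sox9cKO replicates 1 and 2, against 7.66 and 7.68 in SmoM2 arrays. Sox9cKO replicate 2 was therefore the low array, and replicate 1 lay at the level of the SmoM2 arrays. The change of Cdkn2a was -1.09 (95% interval -2.51 to 0.34, adjusted p = 0.427). It was -2.21 without Sox9cKO replicate 1, where it passed (adjusted p = 0.000831), and 0.03 without Sox9cKO replicate 2 (adjusted p = 0.974), so its value rests on which Sox9cKO array is used. Its neighbour Cdkn2b, an INK4 inhibitor on the same chromosome, read 9.68 and 9.21 in Sox9cKO and 9.29 and 9.31 in SmoM2 arrays (adjusted p = 0.765), and showed no such low value in Sox9cKO replicate 2. Cdkn2c read 8.89 and 9.05 in Sox9cKO against 8.69 and 8.46 in SmoM2 arrays, a change of 0.39 that did not pass (adjusted p = 0.219). Cdkn3, a phosphatase that acts on CDKs, changed by 0.44 (adjusted p = 0.336).

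None of the 3 Cip/Kip inhibitors passed by limma. Cdkn1a alone had an unadjusted p under 0.05, and it was lower, as were 9.01% of all genes at that level. Cdkn1a, a p53 target, read 10.76 and 10.54 in Sox9cKO against 11.06 and 11.09 in SmoM2 arrays. Both Sox9cKO values were the lower ones, with a change of -0.42 (adjusted p = 0.168), and its other probe set changed by -0.17 with overlapping arrays. Cdkn1b read 8.86 and 9.42 in Sox9cKO against 8.75 and 8.85 in SmoM2 arrays (change 0.34, adjusted p = 0.463). Cdkn1c, an imprinted inhibitor, was dim at 5.53 and 5.17 in Sox9cKO against 5.32 and 5.37 in SmoM2 arrays, and its group means did not differ (change 0.00, 95% interval -0.38 to 0.38).

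The G cyclins, which do not drive the cycle in the way the other cyclins do, differed in sign. Ccng2, a FoxO target linked to cell-cycle arrest, read 9.99 and 10.03 in Sox9cKO arrays, against 9.39 and 9.28 in SmoM2 arrays. It rose by 0.68 (SE 0.13, 1.60-fold, adjusted p = 0.0294), and its other probe set changed by 0.62 without passing (adjusted p = 0.0912). Ccng1, a p53 target, read 9.64 and 9.60 in Sox9cKO against 9.73 and 10.06 in SmoM2 arrays, a change of -0.28 that did not pass (adjusted p = 0.443). All 3 of its probe sets were lower in Sox9cKO with arrays not overlapping, by -0.28 to -0.62. That array pattern held for 21.8% of all genes, and its share of all probe sets is not given here.

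Among the E2F factors, E2f7 rose and E2f2 and E2f3 were higher without passing. E2f7, an atypical E2F that represses E2F target genes, read 7.97 and 7.93 in Sox9cKO arrays, against 7.29 and 7.14 in SmoM2 arrays. The spread within each genotype was small beside the difference, a log2 change of 0.73 (SE 0.14, 1.66-fold, adjusted p = 0.0229). E2f8, the other atypical E2F, read 8.70 and 8.24 in Sox9cKO and 8.60 and 8.23 in SmoM2 arrays, so its genotypes overlapped (change 0.06, adjusted p = 0.930). The activator E2f3 read 9.18 and 9.15 in Sox9cKO against 8.47 and 8.69 in SmoM2 arrays, a change of 0.58 (adjusted p = 0.0642). The activator E2f2 read 7.19 and 7.37 in Sox9cKO against 6.92 and 6.38 in SmoM2 arrays, a change of 0.63 (adjusted p = 0.137), and its other probe set was called (change 0.80, adjusted p = 0.0271). E2f1, the founding activator, read 6.71 and 6.16 in Sox9cKO and 6.60 and 6.48 in SmoM2 arrays (change -0.10, adjusted p = 0.856). Its probe sets disagreed, with changes between -0.53 and 0.02. The repressor-type E2f4, E2f5 and E2f6 changed by -0.17, 0.50 and -0.28, with adjusted p between 0.358 and 0.665.

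None of the 5 pocket and DP proteins passed by limma, and 0 had an unadjusted p under 0.05. Rb1, the retinoblastoma protein that holds activator E2Fs in check, read 9.17 and 9.43 in Sox9cKO against 9.51 and 9.69 in SmoM2 arrays, a change of -0.30 with arrays not overlapping (95% interval -0.67 to 0.06, adjusted p = 0.378). Its relatives Rbl1 and Rbl2 and the E2F partners Tfdp1 and Tfdp2 had changes between 0.08 and 0.22. E cyclins and Cdk2, the S-phase entry kinase, also gave 0 calls by limma and 0 unadjusted p under 0.05. Ccne1, Ccne2 and Cdk2 changed by 0.03, 0.28 and 0.11, and arrays of the genotypes overlapped for each of the 3.

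**Figure D3:**
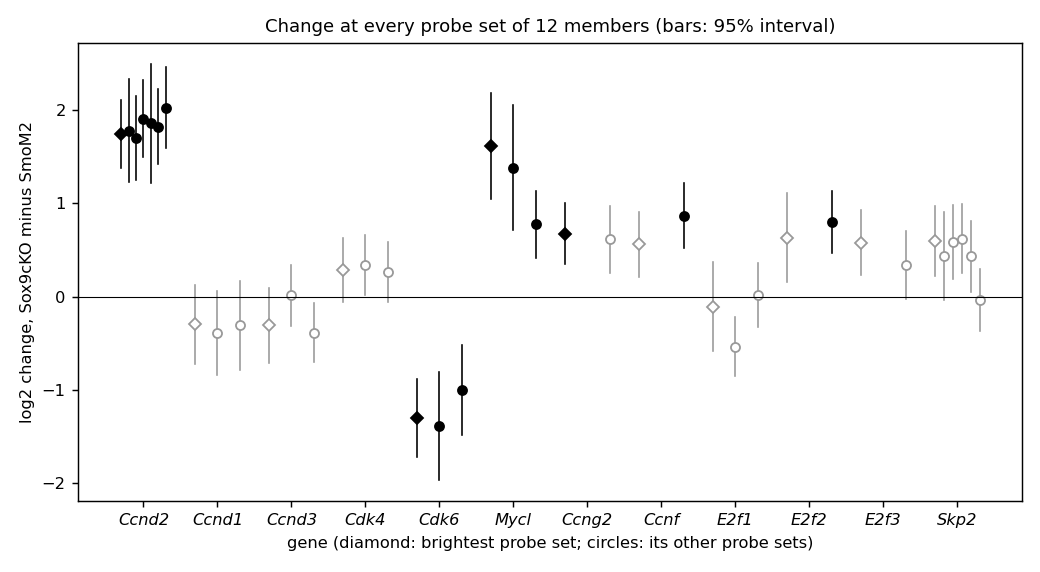
Log2 change (Sox9cKO minus SmoM2) at every probe set of 12 members that have several, with a diamond for the brightest, circles for the others and bars for 95% intervals; filled symbols passed at an adjusted p under 0.05 over all probe sets. All probe sets of Ccnd2, Mycl and Cdk6 passed in 1 direction, 1 of 2 passed for Ccng2, Ccnf and E2f2, and those of E2f1 lay on both sides of 0.

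Among the Myc genes, Mycl rose, Myc fell and Mycn did not pass. Mycl, the gene of L-Myc, read 10.08 and 9.75 in Sox9cKO arrays, against 8.63 and 7.96 in SmoM2 arrays. Both Sox9cKO arrays lay more than 1 log2 unit above the higher SmoM2 array. The mean was 9.91 ± 0.23 in Sox9cKO and 8.29 ± 0.47 in SmoM2 (SD, n = 2 each), a log2 change of 1.62 (SE 0.24, 3.07-fold, adjusted p = 0.00856). All 3 of its probe sets were called higher, with changes between 0.78 and 1.62, so its size depends on the probe set. Myc, a growth and proliferation factor, read 8.80 and 8.84 in Sox9cKO arrays, against 9.39 and 9.47 in SmoM2 arrays. Its replicates lay close together in each genotype and it fell by 0.61 on the log2 scale (SE 0.13, 1.53-fold lower, adjusted p = 0.0424), with adjusted p = 0.0658 in the test over all probe sets. Mycn, known as a Hedgehog target, read 8.68 and 8.79 in Sox9cKO and 8.38 and 8.71 in SmoM2 arrays, with overlapping genotypes (change 0.19, adjusted p = 0.637). Of the 11 measured Myc partners and antagonists, such as Max and the Mxd genes, 0 were called by limma, and the median change was 0.04. At an unadjusted p under 0.05, 1 was higher and 1 lower (9.09% each, against 8.76% and 9.01% of all genes). Their smallest p belonged to Mxd3 (change 0.51, adjusted p = 0.177) and Mxd1 (change -0.59, adjusted p = 0.190).

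With 2 arrays per genotype, an exact permutation test of 1 gene cannot go below p = 0.333, so the calls depend on limma's pooling of variance over genes. Ccnd2 and Mycl passed with any 1 of the 4 arrays left out. Ccng2, Cdkn2d, E2f7 and Myc missed the threshold with any 1 of the 4 arrays left out, with adjusted p between 0.0726 and 0.188 in those smaller fits, while their log2 changes stayed between 0.61 and 0.81 for the 3 that rose and between -0.65 and -0.57 for Myc.

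The cyclins and kinase of mitosis were higher in Sox9cKO without passing the test. Ccnb2, a B cyclin that activates Cdk1, read 10.44 and 10.34 in Sox9cKO arrays, against 9.88 and 9.51 in SmoM2 arrays (change 0.69, SE 0.17, 95% interval 0.30 to 1.08, adjusted p = 0.0586). Cdk1, the mitotic kinase, read 10.52 and 10.64 in Sox9cKO against 10.15 and 9.83 in SmoM2 arrays (change 0.59, adjusted p = 0.0853). Ccna2, the A cyclin of S phase and early mitosis, read 10.63 and 10.22 in Sox9cKO against 10.08 and 9.49 in SmoM2 arrays (change 0.64, adjusted p = 0.193). In all 3 genes no Sox9cKO array was as low as the higher SmoM2 array. Ccnf, a cyclin that serves as a ubiquitin ligase subunit, read 7.23 and 7.13 in Sox9cKO against 6.72 and 6.52 in SmoM2 arrays (change 0.56, adjusted p = 0.0708), and its dimmer probe set was called (change 0.87, adjusted p = 0.0242). Thus 0 of these 4 passed by limma among genes, all 4 had an unadjusted p under 0.05, and all 4 were higher in Sox9cKO with arrays not overlapping. Over all genes, 8.76% were higher at an unadjusted p under 0.05, and 26% were higher with arrays not overlapping. Ccnb2 passed when limma's prior followed intensity and was robust (adjusted p = 0.0391) and with dim genes left out (adjusted p = 0.0472), and Ccnf (adjusted p = 0.0225) and E2f2 (adjusted p = 0.0442) passed when the probe sets of each gene were averaged.

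The Cdc25 phosphatases, which activate CDKs, their opponent Wee1, which inhibits Cdk1, and Skp2 all had positive changes, with 0 of 5 called by limma and 4 (Skp2, Cdc25b, Cdc25c and Wee1) at an unadjusted p under 0.05. Those 4 were 80% of the group, where 8.76% of all genes were higher at that level and 53.7% had a positive change. Skp2, the ubiquitin ligase subunit that targets Cdkn1b for destruction, read 8.98 and 8.78 in Sox9cKO against 8.41 and 8.16 in SmoM2 arrays (change 0.60, adjusted p = 0.0765). Of its 6 probe sets, 5 were higher in Sox9cKO with arrays not overlapping and none was called. That array pattern held for 26% of all genes, and its share of all probe sets is not given here. Cdc25c, a phosphatase that activates Cdk1, read 7.93 and 7.42 in Sox9cKO against 7.26 and 6.82 in SmoM2 arrays (change 0.63, adjusted p = 0.182). Cdc25b changed by 0.39 (adjusted p = 0.187), Cdc25a by 0.12 (adjusted p = 0.745) and Wee1, the kinase that opposes the Cdc25 phosphatases, by 0.45 (adjusted p = 0.150).

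Promoters of the late cell-cycle genes often hold the cell-cycle homology region (CHR, TTTGAA), bound by the MuvB complex, near CCAAT boxes bound by NF-Y. RefSeq promoter windows of GRCm38.p6, from 250 bases before to 50 after each start, matched 34 of the 45 members. The stretches below end at the base before the start, read 5′ to 3′ on the gene's strand, and show 4 genes whose Sox9cKO arrays all lay above the SmoM2 arrays, with TTTGAA and CCAAT in capitals on either strand (a CCAAT on the other strand appears as ATTGG). As 25 members had that array pattern, these 4 genes, which all hold TTTGAA, do not stand for the rest. Ccnb2 holds a further TTTGAA at bases 5 to 10 after the start, outside its stretch. The last stretch is that of E2f7, the 1 member that passed the test among the 5 with the E2F motif TTCCCGC in a window. Capitals there mark that motif on either strand (GCGGGAA on the other). Its CCAAT matches and its match to the SOX motif AACAAT are left in lower case.
Ccnb2, chr9:70421555-70421724, minus strand: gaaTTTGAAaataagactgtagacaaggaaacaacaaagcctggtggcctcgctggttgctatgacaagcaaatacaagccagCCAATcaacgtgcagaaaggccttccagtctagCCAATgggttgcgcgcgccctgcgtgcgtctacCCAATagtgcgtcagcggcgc
Cdk1, chr10:69352913-69353032, minus strand: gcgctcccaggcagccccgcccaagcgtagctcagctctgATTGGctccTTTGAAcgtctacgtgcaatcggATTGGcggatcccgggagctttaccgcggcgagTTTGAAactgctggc
Ccnf, chr17:24251410-24251559, minus strand: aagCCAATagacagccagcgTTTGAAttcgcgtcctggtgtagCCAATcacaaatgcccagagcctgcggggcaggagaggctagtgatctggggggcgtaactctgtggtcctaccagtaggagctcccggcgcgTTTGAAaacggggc
Skp2, chr15:9155426-9155615, minus strand: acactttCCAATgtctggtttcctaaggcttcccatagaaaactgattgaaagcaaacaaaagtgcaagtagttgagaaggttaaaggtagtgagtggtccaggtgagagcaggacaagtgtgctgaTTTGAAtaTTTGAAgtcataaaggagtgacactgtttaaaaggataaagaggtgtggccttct
E2f7, chr10:110745209-110745438, plus strand: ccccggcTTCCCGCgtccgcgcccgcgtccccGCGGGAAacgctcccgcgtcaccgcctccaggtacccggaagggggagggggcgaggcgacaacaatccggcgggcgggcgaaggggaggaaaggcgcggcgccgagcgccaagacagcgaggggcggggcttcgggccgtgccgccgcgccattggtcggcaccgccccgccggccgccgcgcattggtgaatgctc

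Matches were counted as exact letters on both strands, and no motif searched contains another. TTTGAA stood in a window of 11 of the 34 matched members (32.4%), against 20.2% of all genes with a window, and CCAAT in 19 (55.9%), against 41.1%. The E2F motifs TTCCCGC and TTTGGCGC stood in 5 (14.7%, against 5.29%) and 3 (8.82%, against 0.585%). The SOX motif AACAAT stood in 4 members (11.8%, against 12.2%), namely Cdk6, E2f7, Mycl and Skp2, and the Gli motif GACCACCCA in 0, against 0.289% of all genes. These shares of all genes are over 27025 genes with a window, which include genes not measured here. Among measured genes, 2263 had TTTGAA and 12189 lacked it, and 6070 had CCAAT and 8382 lacked it. TTCCCGC stood in 1149 measured genes and not in 13303, and TTTGGCGC in 135 and not in 14317. The 11 members with TTTGAA, all of them measured, had positive changes without exception, between 0.06 and 0.69 with a median of 0.56, and 0 of them passed the test by limma. Of the 22 measured members whose windows lacked it, 14 had positive changes, the median was 0.12 in a range of -1.30 to 1.62, and 4 were called higher and 1 lower. Members with CCAAT had a median of 0.42, against 0.11 for those without it. The 5 members with TTCCCGC had a median of 0.39 in a range of -1.09 to 0.73, against 0.18 without it. The 3 members with TTTGGCGC had a median of 0.191, against 0.196 without it. Of the 4 members with AACAAT, 2 were called higher (E2f7 and Mycl) and 1 lower (Cdk6). Among the 29 measured members whose windows lacked it, 2 were called higher and 0 lower. Whether calls go with the motif was not tested. Of the 1248 measured genes with AACAAT in a window, 32 were called higher and 45 lower. Of the 13204 without it, 362 were called higher and 430 lower. Over all measured genes the medians were 0.03 with TTTGAA and 0.02 without it. A match is a description of letters and not of a bound site.

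The rest of the cell-cycle machinery was read from lists of other genes of the pathway. Of 22 target genes of B-Myb and Foxm1 that act in mitosis, 10 rose and none fell, all 22 had a positive change, and the median was 0.71. Over all genes, 2.66% were called higher, 3.53% were called lower and 53.7% had a positive change, with a median of 0.02. Kif11, a spindle motor, rose by 0.98 (SE 0.13), Mki67, which marks cycling cells, by 0.94 (SE 0.14), the spindle gene Nusap1 by 1.00 (SE 0.17) and the kinetochore gene Cenpf by 0.85 (SE 0.15), with adjusted p between 0.00603 and 0.0188 by limma. B-Myb itself, the member Mybl2, was dim at 6.37 and 6.04 in Sox9cKO against 6.56 and 6.39 in SmoM2 arrays. Its change of -0.27 did not pass (adjusted p = 0.470 by limma). Both of its probe sets were lower with arrays not overlapping, as were 21.8% of all genes. Foxm1 read 7.54 and 7.43 in Sox9cKO against 7.38 and 7.15 in SmoM2 arrays (change 0.23, adjusted p = 0.514). Of the 8 genes of the MuvB core, Foxm1 and the other Myb factors, 0 were called by limma and the median change was 0.22. An unadjusted p under 0.05 was reached by 1 of them, which was higher (12.5%, against 8.76% of all genes).

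SmoM2 replicate 2 was the lowest of the 4 arrays for 21 of these 22 mitotic targets and for 19 of the 31 members with a positive change. Over all genes with a positive change it was the lowest for 44.6%. It was the highest array for 9 of the 12 members with a negative change, and for 3246 of the 8401 genes with a negative change. The mitotic target list averaged 9.82 and 9.68 in Sox9cKO replicates 1 and 2, against 9.23 and 8.90 in SmoM2 replicates 1 and 2, so the genotypes did not overlap. Without SmoM2 replicate 2 the median of the list was 0.52 and 0 of its genes were called by limma, against 7 called without SmoM2 replicate 1, 3 without Sox9cKO replicate 1 and 4 without Sox9cKO replicate 2. The spiked controls were also lower in replicate 2 of each genotype, and their part in these values was not tested.

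No S-phase gene of the list passed the test. Of 21 measured E2F target genes of S phase, 0 were called by limma, and 2 had an unadjusted p under 0.05, both higher. These 2 were 9.52% of the list, where 8.76% of all genes were higher at that level. The median change was 0.15, and 17 were positive (81%, against 53.7% of all genes). Pola1, a DNA polymerase subunit, and Tk1, a thymidine kinase, had the smallest p, with changes of 0.46 (adjusted p = 0.110) and 0.47 (adjusted p = 0.169). Whether the mitotic and S-phase lists differ was not tested.

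Among checkpoint and entry kinases and the Gadd45 stress genes listed with them, 4 of 14 measured genes rose and none fell, with a median of 0.38. The 4 were 28.6% of the list, where 2.66% of all genes were called higher. Gadd45b and Gadd45a, stress-induced genes linked to arrest, rose by 1.01 (SE 0.16, adjusted p = 0.0111) and 0.78 (SE 0.13, adjusted p = 0.0155), Cdc7, the kinase that fires replication origins, by 0.70 (SE 0.14, adjusted p = 0.0281), and the mitotic kinase Aurkb, which the mitotic list also holds, by 1.03 (SE 0.20, adjusted p = 0.0282). The count was 0 without SmoM2 replicate 2, 1 without SmoM2 replicate 1, 1 without Sox9cKO replicate 1 and 2 without Sox9cKO replicate 2. Of 24 ubiquitin ligase genes of the SCF and APC/C complexes, 1 rose (4.17%, near the 2.66% of all genes) and none fell, with a median of 0.05. The gene that rose was the APC/C inhibitor Fbxo5 (change 0.80, SE 0.18, adjusted p = 0.0444 by limma). The list of 28 other cyclins and CDKs, which include those that act in transcription, had a median of 0.04, and none rose. In it 1 gene fell, where 3.53% of all genes were called lower. That gene was Cdk5r1, an activator of Cdk5, which read 6.93 and 6.66 in Sox9cKO against 8.56 and 8.63 in SmoM2 arrays (change -1.80, SE 0.15, 3.47-fold lower, adjusted p = 0.000911).

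**Figure D4:**
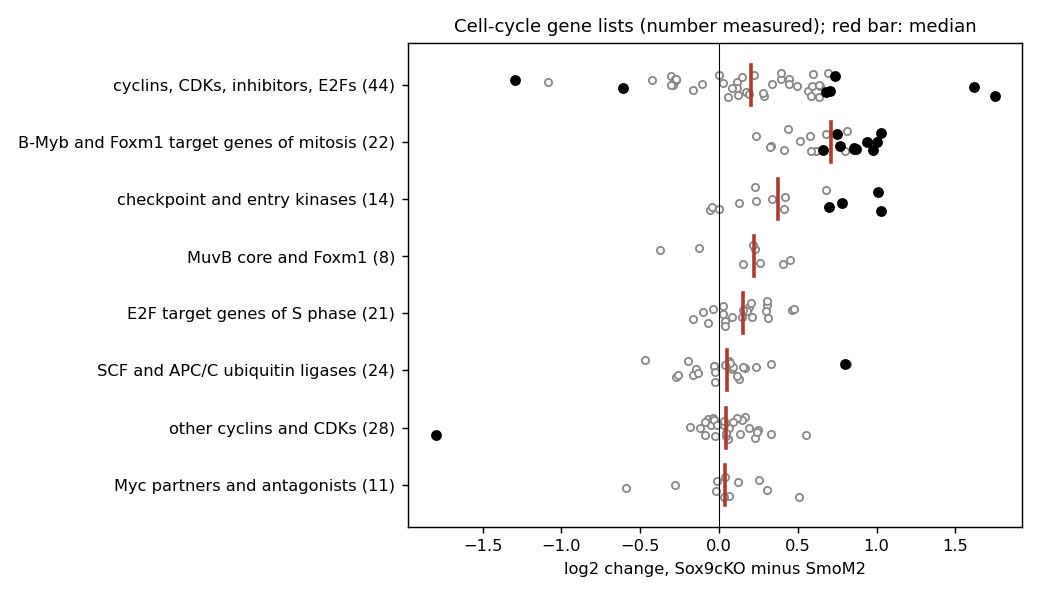
Log2 change (Sox9cKO minus SmoM2, horizontal axis) of each measured gene in 8 cell-cycle lists, with filled points for genes that passed the test and a red bar at the median of each list. The mitotic targets lie wholly above 0 with a median of 0.71, the S-phase targets around a median of 0.15, and some genes stand in more than 1 list.

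Markers of other cell types moved between the genotypes as well. Among all genes, 2.66% were called higher and 3.53% lower by limma, and 8.76% were higher and 9.01% lower at an unadjusted p under 0.05. Of 7 inner root sheath and hair cortex markers, genes of differentiated hair follicle layers, 4 rose (Krt25, Tchh, Krt71 and Krt28). Krt27 changed by 0.72 without passing, and the hair cortex keratins Krt31 and Krt35 changed by -0.07 and 0.08. All 7 averaged 6.78 and 6.28 in Sox9cKO against 5.24 and 4.99 in SmoM2 arrays. Of 6 suprabasal keratinocyte markers 2 rose (Lor and Flg), and all 6 averaged 10.41 and 10.64 in Sox9cKO against 9.95 and 9.53 in SmoM2 arrays. Krt1, Krt10 and Ivl changed by 0.285, 0.40 and 0.81 without passing. Krtdap changed by -0.17, with arrays not overlapping, and did not pass. Of 5 measured sebocyte markers 2 fell (Cidea and Plin2), and all 5 averaged 8.12 and 7.83 in Sox9cKO against 9.35 and 8.65 in SmoM2 arrays. Mgst1 and Pparg changed by -1.07 and -0.87 without passing. Scd1 went the other way, with a change of 0.28 and arrays not overlapping, and did not pass. The T cell and the Langerhans and myeloid lists each had 1 called gene, both higher (Thy1 and H2-Aa), while the T cell receptor genes Cd3d, Cd3e and Cd3g lay between 3.55 and 5.89 on all arrays. All 7 Langerhans and myeloid markers had positive changes. Of them 3 (H2-Aa, Cd74 and Cd207) were higher at an unadjusted p under 0.05, or 42.9% of that list. All 5 measured T cell markers were positive as well, and 1 was higher at that level. Of 7 basal keratinocyte markers 0 were called by limma, 4 had an unadjusted p under 0.05, all lower, and their mean was 11.61 and 11.70 in Sox9cKO against 11.84 and 12.12 in SmoM2 arrays. Of the melanocyte, Merkel, fibroblast, endothelial and erythroid markers 0 were called by limma, and 4 had an unadjusted p under 0.05. The part of any of these cell types in the values of the cell-cycle regulators was not tested.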

How the data were processed

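The authors deposited a log2 signal for every probe set on every array, and their summary and normalization steps are not given in the sources. The submitters' processing notes name R 2.14.0, with no role. That the scale is log2 was inferred from the values, which were used unchanged. Quartiles are nearly equal between arrays, so a shift common to most genes may no longer be visible. Arrays give no read depth, and their number limits the precision.

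Of 45101 probe sets, 64 were controls. The platform annotation gave 1 symbol for 34958, several for 932 and none for 9211, controls included; symbols were updated through the entrez ID. The brightest probe set stood for each of 18193 genes. Sox9cKO was compared with SmoM2 by limma 3.58.1 under R 4.3.3 (lmFit, then eBayes, two-sided, no covariate, 7.17 degrees of freedom), adjusted by Benjamini-Hochberg over all genes, and again over 45037 probe sets. Values by array are given for members that passed, members at least 1.5-fold apart with arrays not overlapping, and members needed to complete a role, and up to 4 genes of each other list by smallest p are named, with Foxm1 and the markers beside them. Members and lists were chosen with earlier results of these data known. On simulated data for this comparison the fit recovered 2% of genes changed 1.5-fold, 50% at 2-fold, 98% at 4-fold and 100% at 8-fold, with 7 false calls among 132. Only 50 genes at each fold were changed among 18193, while 1126 genes were called in the data. The adjustment was thus stricter in the simulation, and these shares do not measure the power of the comparison itself. Alternatives were other probe set rules, another prior, a filter on dim genes, quantile normalization, a replicate block and leaving out each array.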

Additional observations from a re-analysis of the deposited data

How the results depend on the processing

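The 7 calls among members held when the probe sets of each gene were averaged, without _x_at and _s_at probe sets, with an intensity trend and robust prior, with dim genes left out (40 members tested) and after quantile normalization. Leaving out 1 array gave 534 to 900 genes called, against 1126, with 2 members called higher in each case, 0 to 2 called lower and 8 to 11 member probe sets called, against 17. Those fits have fewer samples, and the single array left in a genotype borrows its spread from the other genotype. The members at least 2-fold apart with arrays not overlapping were 3, and 4 without Sox9cKO replicate 1, which adds Cdkn2a. Replicate numbers are shared between the genotypes, but nothing in the labels says that they pair samples, and the deviations of same-numbered arrays from their group means correlated weakly (r = 0.09 across genes, which are not independent). With the replicate number as a block, 1919 genes, 13 members higher and 30 member probe sets were called, the added members being Ccna2, Ccnb2, Ccnf, Cdc25c, Cdk1, E2f2, E2f3 and Skp2, and the 7 calls held. The counts of the mitotic and checkpoint lists without each array were chosen after seeing the data. No call of a member turned its direction under any of these settings.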
